A study of Homo sapiens with 6 samples.

Results

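The anoctamin (TMEM16) genes ANO1 to ANO10 were followed in LN229 cells, an established human glioblastoma line, with and without PARP3, a DNA-dependent ADP-ribosyltransferase. The members were found by name, and all 10 were present among the 33841 genes of the deposited table. ANO3 was chosen from the study's heat map of genes that differ between the same libraries, so its values are given as a description with no test, whereas the other 9 entered through their family name. RNA-seq was run on 3 WT libraries and 3 PARP3-/- libraries, labelled as biological replicates, and all 6 came from proliferating cells in the same serum-containing medium. PARP3 was disrupted with CRISPR/Cas9 and PARP3-/- lines were grown from single cells, so a difference between the genotypes cannot be told apart from a property of the clone, and which clone was sequenced is not given in the sources used here.

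Anoctamins are membrane proteins with a shared fold that open or rearrange when calcium rises inside the cell. ANO1 and ANO2 are calcium-activated chloride channels, ANO6 is a calcium-activated phospholipid scramblase that exposes phosphatidylserine on the outer leaflet, and several others scramble lipids or sit mostly in internal membranes. ANO1 is known for secretion, for gut pacemaking and for high levels in some tumours, whereas variants of ANO3, ANO5, ANO6 and ANO10 cause inherited dystonia, muscle and bone disease, a bleeding disorder and ataxia, respectively.

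Libraries held between 29692065 and 46010369 counts, so that 3 counts equalled 0.0673 to 0.0995 CPM (counts per 1000000, scaled by edgeR's TMM factors as are all CPM here). The targeted gene was counted 1273, 942 and 995 times in the WT libraries and 574, 1004 and 736 times in the PARP3-/- ones. PARP3 thus stood at 27.2 ± 6.70 CPM (SD, n = 3) in WT and 20.3 ± 1.90 CPM (n = 3) in PARP3-/- cells, with a log2 fold change of -0.42 (SE 0.18) that did not pass the test (edgeR quasi-likelihood, adjusted p = 0.307) but did with replicate number as a block (-0.39, adjusted p = 0.0469). The groups overlapped, and counts over the whole gene include exons outside the edited ones, so this level does not check the labels. The glial and glioma markers VIM, NES, CD44, S100B, SOX2 and OLIG2 were measured in every library. GFAP (0.253 CPM in WT and 0.125 in PARP3-/- cells), AQP4 (0.153 and 0.180 CPM), ALDH1L1 and SOX9, the rest of the list, were at or near 0. Of 12 markers of other cell types, 6 never exceeded 3 counts in a library, and their summed level ran from 44.5 to 109.5 CPM in WT and from 52.1 to 86.9 CPM in PARP3-/- libraries, most of it the synaptic gene SYT1. Replicate 1 stood furthest from the other libraries in both genotypes.

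Among the 10 members, ANO1 and ANO5 were higher in PARP3-/- cells, ANO3 was lower, and ANO6, the most abundant member, stayed within a narrow range. Of the 7 members other than ANO3 that passed the filter on low counts, 2 were called higher (adjusted p under 0.05 over all 17144 genes tested) and 0 lower, against 1.36% of all tested genes called higher and 3.33% called lower. ANO2 and ANO9 did not pass the filter. ANO4, ANO6, ANO7, ANO8 and ANO10 were tested and not called. The same 2 members were called higher with replicate number as a block, a fit that called 11.8% of all tested genes higher and 12.5% lower. The PARP3-/- libraries lay above every WT library for ANO1, ANO2 and ANO5 and below every WT library for ANO3, patterns seen in 10.8% and 12.0% of all tested genes. ANO2 was not among those tested genes, and nothing is read from the position of ANO3, which was chosen on this contrast.

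**Figure D1:**
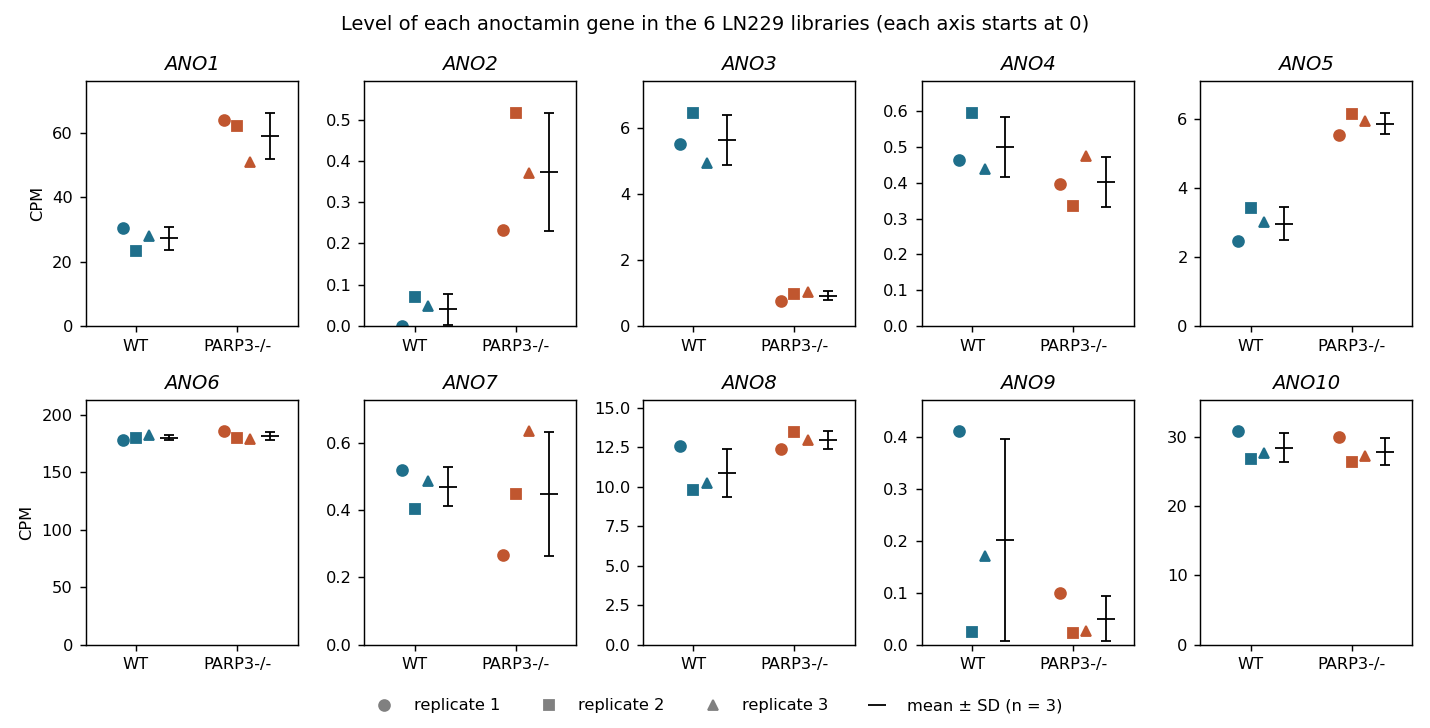
CPM of each of the 10 anoctamin genes (vertical axes, each from 0) in the 3 WT and 3 PARP3-/- libraries, with symbols for replicate number and bars for the mean ± SD (n = 3). ANO1, ANO2 and ANO5 lie higher in the 3 PARP3-/- libraries, ANO3 lies lower, and the other 6 overlap between genotypes.

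To show the start of the genes whose results differ in direction, the 250 bases before the start of the Ensembl canonical transcript (GENCODE 44, hg38, strand of the gene) are printed for ANO3, which was lower, ANO5, which was higher, and ANO6, which was steady. Capitals mark the dinucleotide CG, which reads the same on both strands and is the site of most DNA methylation in human cells. The ANO3 window lies at chr11:26331880-26332129 (plus strand), the ANO5 window at chr11:22192835-22193084 (plus) and the ANO6 window at chr12:45215845-45216094 (plus).
ANO3: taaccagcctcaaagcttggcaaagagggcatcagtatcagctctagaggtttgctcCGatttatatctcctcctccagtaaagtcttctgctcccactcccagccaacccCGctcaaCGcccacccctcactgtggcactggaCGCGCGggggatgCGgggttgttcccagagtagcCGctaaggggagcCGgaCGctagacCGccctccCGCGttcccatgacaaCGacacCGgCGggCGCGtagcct
ANO5: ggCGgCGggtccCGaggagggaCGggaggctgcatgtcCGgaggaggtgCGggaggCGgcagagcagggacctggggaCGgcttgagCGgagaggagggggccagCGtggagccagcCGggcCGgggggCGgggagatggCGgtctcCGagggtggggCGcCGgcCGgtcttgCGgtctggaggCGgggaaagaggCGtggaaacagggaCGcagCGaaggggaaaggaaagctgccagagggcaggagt
ANO6: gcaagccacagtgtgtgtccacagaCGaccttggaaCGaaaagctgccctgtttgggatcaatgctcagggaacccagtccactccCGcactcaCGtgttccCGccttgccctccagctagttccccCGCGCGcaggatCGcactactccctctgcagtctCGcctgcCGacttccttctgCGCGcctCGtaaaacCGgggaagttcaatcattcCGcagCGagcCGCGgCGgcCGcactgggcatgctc
The ANO3 window holds 18 CG dinucleotides, the ANO5 window 23 and the ANO6 window 21. Over the same window of 20032 protein-coding genes the median was 18 (quartiles 7 and 27), and 97.1% held at least 1. Other members had 34 (ANO2), 28 (ANO10), 18 (ANO8), 8 (ANO9), 7 (ANO4) and 5 (ANO7). The CG counts of ANO3, ANO5 and ANO6 thus all fell between the quartiles of all genes. Several members have further annotated starts, and which start LN229 cells use was not measured.

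ANO1 encodes a calcium-activated chloride channel of 986 residues and spans chr11:70078302-70189528 in the table's hg38 (Ensembl 91) annotation, with 26 exons in its canonical transcript. It had 1111, 983 and 1142 counts in WT replicates 1 to 3 and 1931, 2778 and 1925 in PARP3-/- replicates 1 to 3. Every PARP3-/- library (64.0, 62.3 and 50.9 CPM) was above every WT library (30.4, 23.4 and 27.8 CPM). The mean rose from 27.2 ± 3.54 to 59.1 ± 7.13 CPM (SD, n = 3 each), a log2 fold change of 1.12 (SE 0.13, 95% interval 0.81 to 1.43) with an edgeR adjusted p of 0.00485. By replicate number the increase was 2.11-fold, 2.66-fold and 1.83-fold. The call held in all 12 alternatives tried, with log2 fold changes from 1.02 to 1.21 and a highest adjusted p of 0.0365.

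An antisense RNA gene, ANO1-AS2, lies just before ANO1 in head-to-head orientation at chr11:70072434-70075433. It had 63, 128 and 91 counts in WT and 73, 168 and 144 in PARP3-/- libraries, and the groups overlapped. Its log2 fold change of 0.52 (SE 0.27) did not pass the test (edgeR, adjusted p = 0.422), but passed with replicate number as a block (0.52, adjusted p = 0.0243). FADD, an adaptor of death receptors and the nearest tested gene on the other side of ANO1, had a log2 fold change of -0.13 (adjusted p = 0.878).

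ANO2, the channel best known from olfactory and photoreceptor neurons (chr12:5531869-5946232, minus strand), was close to the limit of detection in WT cells, with 0, 3 and 2 counts. PARP3-/- libraries held 7, 23 and 14 counts, each above every WT library. These counts gave 0.0401 ± 0.0365 CPM in WT and 0.373 ± 0.142 CPM in PARP3-/- cells (SD, n = 3 each). The ratio of the summed counts, scaled by library size, was 9.35 (exact 95% interval 3.72 to 30.2, covering counting error only). Below the filter, ANO2 had no test in the main comparison. Without the filter its log2 fold change was 3.10 (edgeR, adjusted p = 0.0126) and DESeq2 gave 3.19 (adjusted p = 0.00996), with values that depend on how small counts are moderated. With 0, 3 and 2 counts in WT, nothing is read from its passing in these fits.

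The neighbouring gene NTF3, which encodes the nerve growth factor relative neurotrophin-3, was called higher. It had 14, 17 and 21 counts in WT and 39, 94 and 69 in PARP3-/- libraries, which did not overlap. Its mean rose from 0.433 to 1.74 CPM, a log2 fold change of 2.01 (SE 0.26, edgeR adjusted p = 0.00676). VWF, the endothelial clotting factor gene on the other side of ANO2, had a log2 fold change of -0.95 (adjusted p = 0.392). NTF3 was the 1 gene called higher among 109 other tested genes within 5 Mb of ANO2, of which 9 were called lower and whose median log2 fold change was -0.22. Over all tested genes, 1.36% were called higher and 3.33% lower. The 9 include CRACR2A and AC005831.1, at log2 fold changes of -7.71 and -7.21. A gene can pass the filter on low counts through WT alone, so no support is drawn from the number called lower.

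ANO3 encodes a neuronal member of 981 residues altered in a form of dystonia, and lies at chr11:26309599-26663288 with 27 exons in its canonical transcript. It had 202, 271 and 203 counts in WT replicates 1 to 3 and 23, 43 and 39 in PARP3-/- replicates 1 to 3. In CPM the WT libraries were at 5.53, 6.45 and 4.95 and the PARP3-/- libraries at 0.763, 0.965 and 1.03. The groups were far apart, with the lowest WT library several times the highest PARP3-/- library. The mean was 5.64 ± 0.760 CPM in WT and 0.920 ± 0.140 CPM in PARP3-/- cells (SD, n = 3 each), 6.14-fold higher in WT. The log2 fold change was -2.60. ANO3 transcripts were still counted in every PARP3-/- library, above the 3 counts taken as the floor.

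On both sides of ANO3 the nearest tested gene was low in PARP3-/- cells, at midpoint distances of 1697 kb for LUZP2 and 209 kb for SLC5A12. LUZP2, a leucine zipper protein gene, had 326, 301 and 325 counts in WT and 112, 122 and 109 in PARP3-/- libraries. It fell from 8.003 to 3.11 CPM, a log2 fold change of -1.37 (SE 0.17, edgeR adjusted p = 0.00538). SLC5A12, a sodium-coupled transporter of lactate and related acids, had 100, 47 and 82 counts in WT and 23, 23 and 24 in PARP3-/- libraries, again without overlap. Its log2 fold change of -1.62 (SE 0.36) missed the threshold (adjusted p = 0.0566) and passed with the replicate block (-1.56, adjusted p = 0.000358). The 18 other tested genes within 5 Mb of ANO3 had a median log2 fold change of -0.13, and LUZP2 was the 1 called among them, beside 3.33% of all tested genes called lower. BDNF, 1.20 Mb away, had a log2 fold change of 0.36 with its PARP3-/- libraries above those of WT, and was not called. This gene was named after its values were seen.

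The 5 tested genes whose log2 CPM followed ANO3 most closely over the 6 libraries were XAGE2 (Pearson r = 0.999), SEMA4D (0.997), ASIC2 (0.997), ADD2 (0.997) and PEG3 (0.997). With 3 libraries on each side of one step, such values chiefly describe a shared difference between genotypes, whatever its size. XAGE2 went from 4.64 to 0.223 CPM between WT and PARP3-/- cells, whereas PEG3 went only from 77.2 to 62.1 CPM. In PARP3-/- libraries XAGE2 held 4, 11 and 11 counts, SEMA4D 0, 1 and 1, ASIC2 0, 0 and 1, and ADD2 0, 0 and 0. XAGE2, SEMA4D, ASIC2 and ADD2 thus passed the filter on low counts only through WT. Their r values also depend on the 0.5 added to each CPM before taking logs, so nothing is read from them.

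ANO5, mutated in a limb-girdle muscular dystrophy and in a disorder of the jaw and long bones, lies on the same chromosome arm as ANO3 at chr11:22193176-22283357. It had 90, 144 and 124 counts in WT replicates 1 to 3 and 167, 274 and 225 in PARP3-/- replicates 1 to 3. In CPM the WT libraries were at 2.46, 3.43 and 3.02 and the PARP3-/- libraries at 5.54, 6.15 and 5.95, with no overlap. The mean rose from 2.97 ± 0.485 to 5.88 ± 0.310 CPM (SD, n = 3 each), a log2 fold change of 0.98 (SE 0.16, 95% interval 0.61 to 1.36) with an edgeR adjusted p of 0.0168. The replicate numbers gave increases of 2.25-fold, 1.79-fold and 1.97-fold. The direction held in all 12 alternatives (0.87 to 1.09), but the call was lost without WT replicate 3 (adjusted p = 0.0905), without PARP3-/- replicate 2 (0.0919) and without PARP3-/- replicate 3 (0.0861).

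Genes around ANO5 gave no call in its direction. Among 35 other tested genes within 5 Mb, 0 were called higher, 4 were called lower (HPS5, KCNJ11, LUZP2 and SAA1), and the highest log2 fold change was 0.47. That highest value belonged to AC107886.1, an antisense RNA inside ANO5, with an adjusted p of 0.599. PRMT3, an arginine methyltransferase gene and the nearest tested gene on the other side, had a log2 fold change of -0.32 (adjusted p = 0.0912, and 0.00146 with the replicate block). Around ANO1, where 168 other genes were tested within 5 Mb, 4 were called higher and 1 lower, the highest log2 fold change was 0.92 and the median was 0.07. Both windows stand beside 1.36% of all tested genes called higher and 3.33% called lower.

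**Figure D2:**
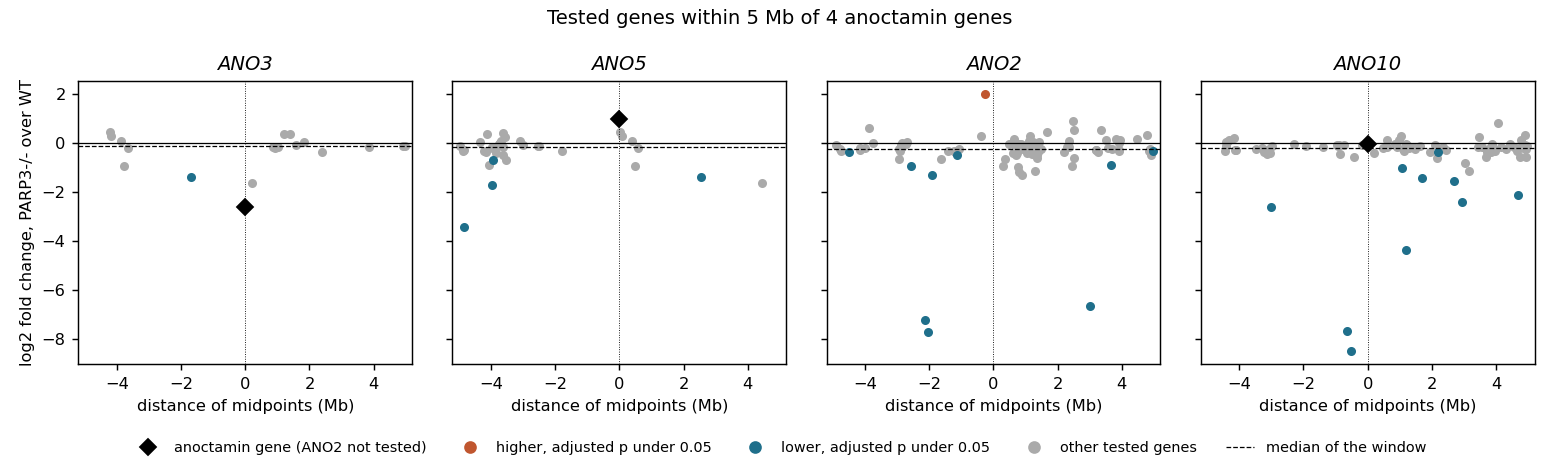
log2 fold change (PARP3-/- over WT, edgeR) of tested genes within 5 Mb of ANO3, ANO5, ANO2 and ANO10, against the distance of gene midpoints in Mb. Diamonds are the anoctamin genes (ANO2 was not tested), dashed lines the window medians, orange points genes called higher and blue points genes called lower. ANO3 and ANO5 lie on opposite sides of windows whose medians are -0.13 and -0.18.

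ANO6, the scramblase missing in Scott syndrome (chr12:45215987-45440404), was the steadiest and most abundant member. It had 6506, 7567 and 7487 counts in WT and 5592, 8007 and 6768 in PARP3-/- libraries, and the groups overlapped once scaled to CPM. The mean was 180.2 ± 2.19 CPM in WT and 181.4 ± 3.57 CPM in PARP3-/- cells (SD, n = 3 each). The log2 fold change was 0.01 (SE 0.068, edgeR adjusted p = 0.978), and the 95% interval of -0.15 to 0.17 bounds the size of change these libraries allow. Among 92 other tested genes within 5 Mb, 85.9% had a log2 fold change below 0 and the median was -0.21, so ANO6 lay above the middle of its region.

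ANO10, a ubiquitous member linked to a recessive cerebellar ataxia (chr3:43354859-43691594, minus strand), did not differ beyond its spread. It had 1126, 1128 and 1139 counts in WT and 907, 1176 and 1029 in PARP3-/- libraries. The mean was 28.5 ± 2.07 CPM in WT and 27.9 ± 1.94 CPM in PARP3-/- cells (SD, n = 3 each), a log2 fold change of -0.03 (SE 0.091, 95% interval -0.25 to 0.18, edgeR adjusted p = 0.941). Of 86 other tested genes within 5 Mb of ANO10, 87.2% were below 0, with a median of -0.20 against -0.14 over chromosome 3, which also carries PARP3. Among them 10 were called lower and 0 higher, beside 3.33% and 1.36% of all tested genes. The 10 include FAM198A and KRBOX1, at log2 fold changes of -8.50 and -7.68. As a gene can pass the filter on low counts through WT alone, no support is drawn from the number called lower. The windows of ANO6 and ANO2 on chromosome 12 were like that of ANO10, with 85.9% and 81.7% below 0 and medians of -0.21 and -0.22. The window of ANO4, on the same chromosome, went the other way, with 32.7% below 0 and a median of 0.04. Over all tested genes the median was -0.006. ABHD5, a lipase activator whose gene overlaps ANO10 at its upstream edge on the other strand, was at 24.4 CPM in WT and 18.5 in PARP3-/- cells without overlap (adjusted p = 0.124, and 0.00125 with the replicate block).

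ANO8, a member that tethers the endoplasmic reticulum to the plasma membrane (chr19:17323223-17334829, minus strand), had 460, 412 and 419 counts in WT and 373, 602 and 490 in PARP3-/- libraries. Its mean was 10.9 ± 1.502 CPM in WT and 12.9 ± 0.567 CPM in PARP3-/- cells (SD, n = 3 each), and WT replicate 1 lay among the PARP3-/- libraries. The log2 fold change of 0.25 (SE 0.12, 95% interval -0.04 to 0.54) did not pass the test (edgeR, adjusted p = 0.382). With both libraries of replicate 1 left out, an alternative chosen after seeing the data, it was 0.40 and passed (adjusted p = 0.0144). DDA1, whose end overlaps that of ANO8 on the other strand, had a log2 fold change of 0.08 (adjusted p = 0.809), and the strand setting of the counting is not given in the sources used here.

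ANO4, ANO7 and ANO9 were near the limit of what these libraries resolve. ANO4, a member of nervous tissue (chr12:100717526-101128641), had 17, 25 and 18 counts in WT and 12, 15 and 18 in PARP3-/- libraries, with a log2 fold change of -0.32 (SE 0.26, 95% interval -0.92 to 0.29, edgeR adjusted p = 0.656). ANO7, known from prostate (chr2:241188509-241225377), had 19, 17 and 20 counts in WT and 8, 20 and 24 in PARP3-/- libraries, with a log2 fold change of -0.04 (SE 0.33, 95% interval -0.82 to 0.75, adjusted p = 0.981). Changes within those bounds were thus compatible with these libraries, and both low depth and the spread between libraries enter the intervals. ANO7 also has a near copy, the pseudogene ANO7L1 (8, 7 and 9 counts in WT, 4, 6 and 8 in PARP3-/- libraries), and reads of the pair could be split between them.

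ANO9, found mainly in epithelia (chr11:417933-442011, minus strand), had 15, 1 and 7 counts in WT and 3, 1 and 1 in PARP3-/- libraries. These groups overlapped, and WT replicate 1 held most of the reads. The ratio of summed counts was 0.231 (exact 95% interval 0.0686 to 0.621, counting error only), whereas edgeR without the filter, which takes the spread between libraries into account, gave an adjusted p of 0.427. The 0.202 ± 0.195 CPM of WT and 0.0495 ± 0.0434 CPM of PARP3-/- cells (SD, n = 3 each) were therefore not told apart. SIGIRR, a brake on interleukin receptor signalling, was the nearest tested gene on one side of ANO9. It was at 34.2 CPM in WT and 42.2 CPM in PARP3-/- cells without overlap. Its log2 fold change of 0.30 passed only with the block (edgeR, adjusted p = 0.0894, and 0.0021 with it). On the other side by midpoint was RN7SL838P, an RNA gene inside ANO9 on the same strand. It was at 1.96 CPM in WT and 2.15 CPM in PARP3-/- cells (log2 fold change 0.12, edgeR adjusted p = 0.933).

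**Figure D3:**
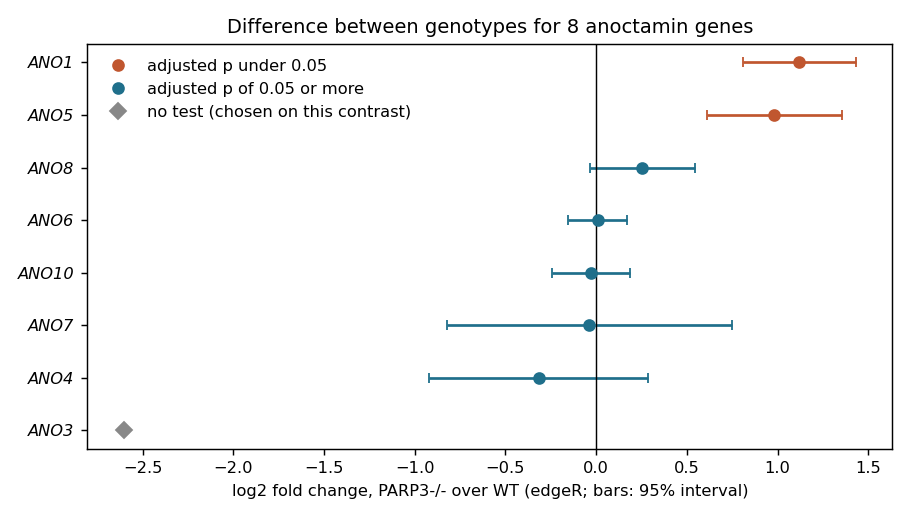
log2 fold change (PARP3-/- over WT, horizontal axis) of the 8 anoctamin genes that passed the filter on low counts, with 95% intervals from edgeR for the 7 that were tested. ANO1 (1.12) and ANO5 (0.98) passed adjusted p under 0.05, and ANO3 (-2.60) is drawn in grey without an interval because it was chosen on this contrast.

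To compare levels between members, CPM was divided by transcript length. The table's own length column gives the median over transcripts, which for ANO1, ANO2, ANO4, ANO7, ANO8 and ANO10 is shorter than the coding sequence, so values per kilobase of the canonical transcript, chosen after seeing the data, are given here. In WT cells ANO6 was highest at 30.1 ± 0.365 CPM per kb, followed by ANO10 at 9.03 ± 0.657 and ANO1 at 5.70 ± 0.741 (SD, n = 3 each). ANO8 followed at 2.60 ± 0.360, ANO3 at 0.950 ± 0.128 and ANO5 at 0.441 ± 0.0719 CPM per kb, and none of these 6 overlapped its neighbour in the order. ANO4 (0.124), ANO7 (0.103), ANO9 (0.0703) and ANO2 (0.0109 CPM per kb) closed the order, each overlapping the next.

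In PARP3-/- cells the order differed in its middle and lower part. ANO1, at 12.4 ± 1.49 CPM per kb, passed ANO10 at 8.84 ± 0.615, and ANO5, at 0.872 ± 0.0460, passed ANO3 at 0.155 ± 0.0236 (SD, n = 3 each). ANO3 there overlapped ANO2 (0.101 CPM per kb), which in turn overlapped ANO4 (0.100) and ANO4 ANO7 (0.0986). ANO6 stayed first at 30.2 CPM per kb by this length, but with the table's length column ANO1 was first at 64.4 and ANO6 at 51.0 CPM per kb, so which of them leads in PARP3-/- cells depends on the length used, as does the order of ANO2, ANO3, ANO4 and ANO7.

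**Figure D4:**
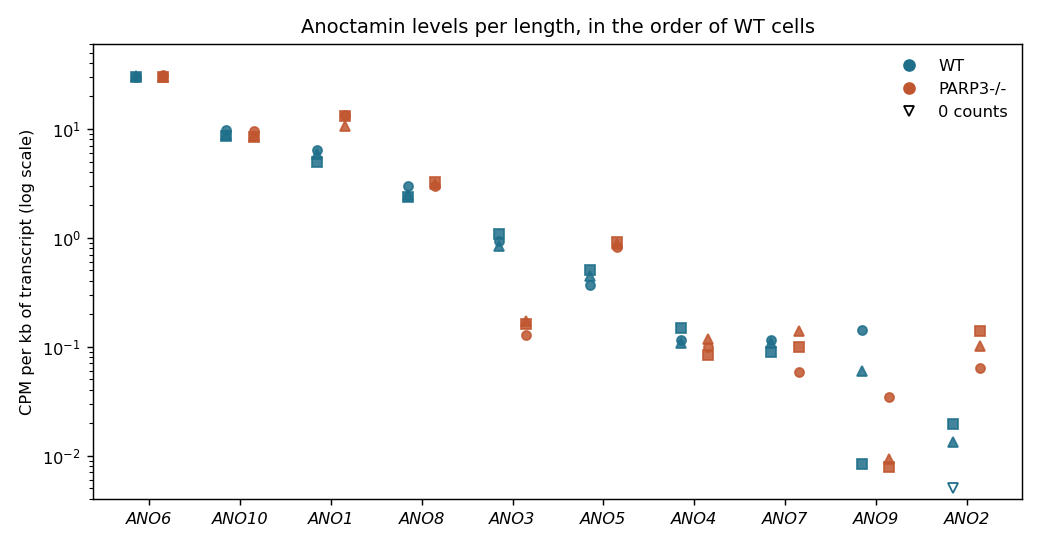
CPM per kb of canonical transcript (log axis) for each anoctamin gene in each library, WT in blue and PARP3-/- in orange, in the order of the WT means. Symbols mark the replicate number as in the plot of member levels, and the open triangle marks the WT library with 0 counts of ANO2. ANO6 is near 30 in all 6 libraries, whereas ANO3 lies just above ANO5 in WT and among the low members in PARP3-/- cells.

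All 10 genes together summed to 261.2, 251.2 and 257.3 CPM in WT and to 299.2, 290.2 and 278.6 CPM in PARP3-/- libraries, without overlap. ANO1 took 10.6 ± 1.18% of the family's counts in WT and 20.4 ± 1.82% in PARP3-/- cells (SD, n = 3 each). The share of ANO6 went from 70.3 ± 1.87% to 62.7 ± 1.34% although its own CPM differed by less than the spread between libraries. ANO3 made up 2.202 ± 0.332% of the family's counts in WT and 0.319 ± 0.0588% in PARP3-/- cells. These shares are not corrected for length, and no test was made of them.

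Genes that work beside the anoctamins were read from 6 lists, of which 85 genes were in the table and 67 were tested. Of these, 0 were called higher and 6 lower, beside 1.36% and 3.33% of all tested genes, and with the replicate block 14 were called higher and 14 lower, beside 11.8% and 12.5%. The 6 were of low level in WT cells, like ANO3. They include XKR5 and TTYH1, which passed the filter on low counts only through WT. Among scramblases outside the family, 2 of 11 tested were lower. XKR4, a scramblase activated in apoptosis, fell from 3.52 to 0.924 CPM (log2 fold change -1.91, SE 0.27, edgeR adjusted p = 0.00954), and its relative XKR5 fell from 0.789 to 0.221 CPM (-1.82, SE 0.25, adjusted p = 0.00975). XKR5 held 25, 39 and 31 counts in WT and 7, 11 and 7 in PARP3-/- libraries. It passed the filter on low counts only through WT, so no support is drawn from its call. VMP1, TMEM41B, ATG9A and PLSCR1, the scramblases of highest level, were not called, although VMP1 passed with the block (log2 fold change 0.22, adjusted p = 0.0303), and the median of the list was -0.01, as over all tested genes. Among P4-ATPases, which pump lipids back to the inner leaflet, 1 of 13 tested was lower, ATP10B, which fell from 2.42 to 0.575 CPM (-2.07, SE 0.22, adjusted p = 0.0031). TMEM30A, the subunit most P4-ATPases need to leave the endoplasmic reticulum, was at 344.7 CPM in WT and 342.5 CPM in PARP3-/- cells.

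Among chloride channels of other families, 2 of 18 tested were lower, TTYH2 (3.47 to 1.81 CPM, log2 fold change -0.94, SE 0.17, edgeR adjusted p = 0.0295) and TTYH1 (0.539 to 0.171 CPM, -1.59, SE 0.32, adjusted p = 0.0388), both of the tweety family of large membrane proteins. TTYH1 held 23, 21 and 20 counts in WT and 3, 9 and 8 in PARP3-/- libraries. Like XKR5 it passed the filter only through WT, so no support is drawn from its call. TTYH3, the tweety member of highest level, was at 53.7 CPM in WT and 67.6 CPM in PARP3-/- cells with overlap, with a log2 fold change of 0.33 that passed only with the block (adjusted p = 0.348, and 0.000823 with it). The median of the list was -0.08. LRRC8A, the obligatory subunit of the volume-regulated anion channel, was at 75.3 CPM in WT and 92.8 CPM in PARP3-/- cells with overlap (adjusted p = 0.475, and 0.00139 with the block). Its partner LRRC8D went the other way, at 83.6 CPM in WT and 71.4 CPM in PARP3-/- cells without overlap (adjusted p = 0.290, and 0.00511 with the block). The block called 5 channels of this list higher and 4 lower. Among the TMC and TMEM63 families, the closest relatives of the anoctamins by fold, 1 of 4 tested was lower. This was TMC6, an endoplasmic reticulum protein of skin immunity, which fell from 2.01 to 0.510 CPM (-1.999, SE 0.36, edgeR adjusted p = 0.0259). TMEM63A and TMEM63B, which open under membrane tension, were not called and passed with the block (log2 fold changes 0.30 and 0.26, block adjusted p = 0.00198 and 0.00502).

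The cation-chloride cotransporters, which set the gradient that chloride channels such as ANO1 use, had 0 of 7 tested called in either direction, with a median log2 fold change of 0.11. SLC12A2, which loads cells with chloride, was at 123.5 CPM in WT and 102.6 CPM in PARP3-/- cells without overlap, passing only with the block (adjusted p = 0.239, and 0.00574 with it). Of 14 genes for calcium supply and anoctamin partners, 0 were called and the median was 0.13. CALM2 (calmodulin), MSN (moesin) and ITPR3, a calcium release channel, were among the most abundant of them, with log2 fold changes of 0.18, 0.15 and 0.14. With the block ORAI2, a pore subunit of store-operated calcium entry, passed upwards (adjusted p = 0.000461) and ITPR1 downwards (0.00016). The 6 glial and glioma markers tested had a median log2 fold change of -0.29, with 1 called lower, and 4 called lower with the block. S100B, itself a calcium-binding protein, was lower in PARP3-/- cells (194.1 to 93.0 CPM, log2 fold change -1.06, SE 0.19, adjusted p = 0.0256), and CD44, SOX2 and OLIG2 passed with the block (log2 fold changes -0.25, -0.32 and -0.53, block adjusted p = 0.00721, 0.00516 and 0.00152). The part of these marker differences in the anoctamin values was not tested.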

How the data were processed

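Per the labels and the study's methods, RNA of 6 LN229 cultures was rRNA-depleted and sequenced as stranded libraries (the labels' molecule field reads polyA RNA). The authors trimmed reads (cutadapt 1.10), removed rRNA reads (Bowtie2 2.2.8), aligned to hg38 (STAR 2.5.3a) and deposited whole-number counts per Ensembl 91 gene (HTSeq 0.6.1p1), with a median transcript length in bases. The deposited table's 12 further per-sample columns and its columns of log2 fold changes, p-values and adjusted p-values from the authors' DESeq2 1.16.1 comparison were not used.

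Counts were tested with edgeR 4.0.16 in R 4.3.3 (TMM scaling, filterByExpr with a minimum count of 10, quasi-likelihood test by genotype, Benjamini-Hochberg over all 17144 tested genes, called at an adjusted p under 0.05). The median log2 fold change of all tested genes was -0.0062. No row lacked a gene identifier. The alternatives were DESeq2 1.42.0, median-of-ratios size factors, no filter, a mean count of at least 50, a log2 fold change beyond 1, replicate number as a block, each library left out and, added after seeing the data, both libraries of replicate 1 left out. The steps were tested on simulated data first. Deviations of same-numbered libraries from their group means correlated (r = 0.788, 0.680 and 0.383 for replicates 1, 2 and 3), so the replicate numbers were taken to pair the libraries. Differently numbered libraries ranged from -0.765 to 0.576, with WT replicate 2 and PARP3-/- replicate 3 (0.576) and WT replicate 3 and PARP3-/- replicate 2 (0.367) also alike. No replicate pair agreed within sampling noise. If replicates shared a culture history, p-values measure that smaller spread. The members and gene lists were chosen with earlier results of these data known. Genes were named by rule: the members, entries carrying a member's name, PARP3, the nearest tested gene on each side, list genes that passed or were of highest level, and the 5 closest to ANO3. ANO7L1, list genes called with the block only, GFAP, AQP4, ALDH1L1, SOX9 and genes of the 5 Mb windows fell outside it and were chosen after their values were seen. Promoter windows were read from hg38 by GENCODE 44. One gene of a list and one promoter window are not reported here.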

Additional observations from a re-analysis of the deposited data

How the results depend on the processing

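ANO1, ANO4, ANO6, ANO7 and ANO10 kept their side of the threshold in every alternative in which they were tested. ANO3, chosen on this contrast, was left out of these counts, and its log2 fold change was -2.69 to -2.50 in the alternatives. No other member was called lower in any of 13, and the replicate block changed the call of no tested member. The number of members called higher, 2 in the main comparison, was 1 to 3 with single libraries left out, 1 when a log2 fold change beyond 1 was required (ANO5 lies just under it), and 4 with both libraries of replicate 1 left out (ANO1, ANO2, ANO5 and ANO8). ANO2 passed without PARP3-/- replicate 1 (adjusted p = 0.0436) and with replicate 1 left out (0.00448), while the other single omissions in which it was tested gave 0.0517 to 0.180. It entered these reduced fits only through its PARP3-/- libraries, as the WT ones held 0, 3 and 2 counts, so nothing is read from its passing. For the 6 gene lists, higher calls went from 0 to 14 with the replicate block, 8 without replicate 1, and 0 to 1 with single libraries left out. Lower calls went from 6 to 14 with the block, 10 with DESeq2, 3 at a mean count of at least 50, 13 without replicate 1, and 1 to 5 with single libraries left out. Beside 1.36% and 3.33% of all tested genes, 1 of the 20 neighbouring genes was called higher and 1 lower. These became 2 and 2 with DESeq2, 3 and 4 with the block and 2 and 4 without replicate 1. Higher calls were 0 at a mean count of at least 50, where NTF3 was not tested, and lower calls were 2 without the filter. With single libraries left out they were 1 to 1 higher and 1 to 2 lower. PARP3 was at -0.39 with the block and at -0.54 to -0.20 with single libraries left out. The order of levels kept 8 of 10 ranks in WT cells when coding length was used, with ANO4 and ANO7 exchanged. The causes of these shifts were not tested. Depth limits ANO2, ANO4, ANO7 and ANO9, whose libraries held at most 25 counts.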
